A study of Caenorhabditis elegans with 2 samples.

Results

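The hsp-16 genes of *Caenorhabditis elegans* encode small heat shock proteins. Those examined here are 6 named genes on chromosome V, of 19973 protein-coding genes annotated on the nuclear chromosomes, and they were chosen by name, not by a measured value. They form 3 divergent pairs, hsp-16.2 with hsp-16.41, hsp-16.1 with hsp-16.48, and hsp-16.49 with hsp-16.11. The data are chromatin immunoprecipitation followed by sequencing (ChIP-seq) of ZTF-4, a zinc finger protein tagged with enhanced green fluorescent protein. Whole L2 larvae of strain OP322, genotype unc-119(ed3) III with the insertion wgIs322, were used, with both sexes pooled and age given as unknown. The series holds 2 biological replicates of this 1 group, both with libraries of 150 to 350 bp. There is no second genotype, stage or treatment, heat shock is not among the labels, and the labels do not name the promoter that drives the tagged gene.

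Small heat shock proteins share an alpha-crystallin domain, assemble into large oligomers and hold unfolding proteins without using ATP. In this species the hsp-16 genes are barely transcribed in unstressed animals and are switched on strongly by heat and other protein-damaging stress through the heat shock factor HSF-1. HSF-1 binds heat shock elements, inverted repeats of the unit GAA. Both genes of a pair are read outwards from 1 shared promoter, and reporters driven by that of hsp-16.2 are widely used to follow the stress response.

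The shared promoters are shown first, because the recovered and the unrecovered pairs have nearly the same one. Positions are on ce11, the plus strand is read 5′ to 3′, and the letters are from the RefSeq copy of that assembly. Capitals mark heat shock element words (TTCNNGAA and GAANNTTC) and the word CTGCGTCTC, whose reverse complement is GAGACGCAG. The first sequence is the whole interval between the annotated starts of hsp-16.2, on the left, and hsp-16.41, on the right (V:1804958-1805177). The second is the matching stretch between hsp-16.1 and hsp-16.48 (V:9087821-9088028).

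hsp-16.2 to hsp-16.41: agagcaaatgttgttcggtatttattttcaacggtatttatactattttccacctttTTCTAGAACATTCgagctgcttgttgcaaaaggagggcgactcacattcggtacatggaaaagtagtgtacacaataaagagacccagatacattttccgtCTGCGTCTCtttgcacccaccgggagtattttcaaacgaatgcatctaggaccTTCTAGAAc
hsp-16.1 to hsp-16.48: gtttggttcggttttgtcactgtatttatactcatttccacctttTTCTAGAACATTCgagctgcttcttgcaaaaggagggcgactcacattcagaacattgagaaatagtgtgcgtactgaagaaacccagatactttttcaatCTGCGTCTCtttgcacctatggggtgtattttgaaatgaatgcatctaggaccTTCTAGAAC

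The third promoter, between hsp-16.11 and hsp-16.49, holds the second sequence letter for letter on the minus strand (V:9089869-9090076). Its whole interval of 310 bp lies unchanged inside the 348 bp interval of hsp-16.1 and hsp-16.48. The 220 bp interval of hsp-16.2 and hsp-16.41 aligned with that of hsp-16.1 and hsp-16.48 without gaps, and 185 of 220 bases were identical (84.1%). The heat shock elements and CTGCGTCTC were among the identical bases.

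Tagged ZTF-4 was recovered at 1 of the 3 promoters. Regions were counted as near a gene when their summit lay within 500 bp of an annotated start site. In each of the 4 lists on ce11, replicate 1, replicate 2, both pooled, and the authors' optimal list of peaks past a threshold on the irreproducible discovery rate (IDR), 2 of the 6 genes had a region. In every list these were hsp-16.2 and hsp-16.41, which share it. The pooled list had 1 more, low region near hsp-16.2, inside the gene (signal 17.6, rank 23764). Genome-wide, 34.5% of protein-coding genes had a region in replicate 1, 35.5% in replicate 2, 34.0% in the pooled list and 5.18% in the optimal list. Of 1697 divergent protein-coding pairs whose starts lay at most 1000 bp apart, 46.3%, 49.6%, 46.6% and 13.9% had a region near either start in the same lists. In the 3 long lists a count of 2 in 6 genes, or of 1 in 3 pairs, is near these shares and is not a result about the genes. The optimal list held 1 of the 3 pairs, beside 52 of the 305 pairs spaced like these, with starts 221 to 349 bp apart. With 1 group and 6 genes no test between groups was possible, and none was run.

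hsp-16.2 (Y46H3A.3, WBGene00002016, V:1804334-1804957, minus strand) and hsp-16.41 (Y46H3A.2, WBGene00002018, V:1805178-1805875, plus strand) start 221 bp apart. Their shared region in the optimal list spanned V:1804970-1805333, with its summit at 1805152. That summit lay 26 bp upstream of the annotated start of hsp-16.41 and 195 bp upstream of that of hsp-16.2. Both starts were therefore within reach of a single region. The summit was at the same base in replicate 1 and 29 bp away in replicate 2, at 1805123.

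Signals are as the authors deposited them and serve here to rank regions inside 1 list. At the shared promoter the signal was 27.7 in replicate 1, rank 2298 of 30000 regions, with a −log10 q-value of 1.69. In replicate 2 it was 63.4, rank 463, with a −log10 q-value of 3.65. In the pooled list it was 88.1, rank 783, above the median of 83.0 for the 1794 peaks. Both replicates thus listed the promoter, but at ranks that differed 4.96-fold. Of the 1019 genes with a peak and a region in both replicates, 4.61% had a ratio of ranks at least as high, and the median ratio was 1.15. Had replicate 1 alone decided, with its own 1794 highest regions as peaks, the count of hsp-16 genes with a peak would be 0. With replicate 2 alone it is 2.

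A pair of further peaks stood at the other ends of the same genes. One, at V:1804152-1804515, had its summit on the last annotated base of hsp-16.2, 1804334. Its signal was 29.4 in replicate 1 (rank 1974), 29.5 in replicate 2 (rank 2456) and 60.3 in the pooled list (rank 1779). The replicates placed it at 1804291 and 1804338. The lowest peak of the optimal list had a signal of 60.2 and the next region below it 60.1, so this peak stood just inside the threshold. The other, at V:1805829-1806192, had its summit at 1806011, 136 bp past the annotated end of hsp-16.41. Its signal was 30.8 in replicate 1 (rank 1744), 44.5 in replicate 2 (rank 1049) and 67.4 in the pooled list (rank 1425). The replicates placed this summit 278 bp apart, at 1806115 and at 1805837, and replicate 2 listed a second, lower region at 1806043 (signal 25.4). The order of the 3 sites was not stable: the promoter was the lowest of them in replicate 1 and the highest in replicate 2.

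**Figure D1:**
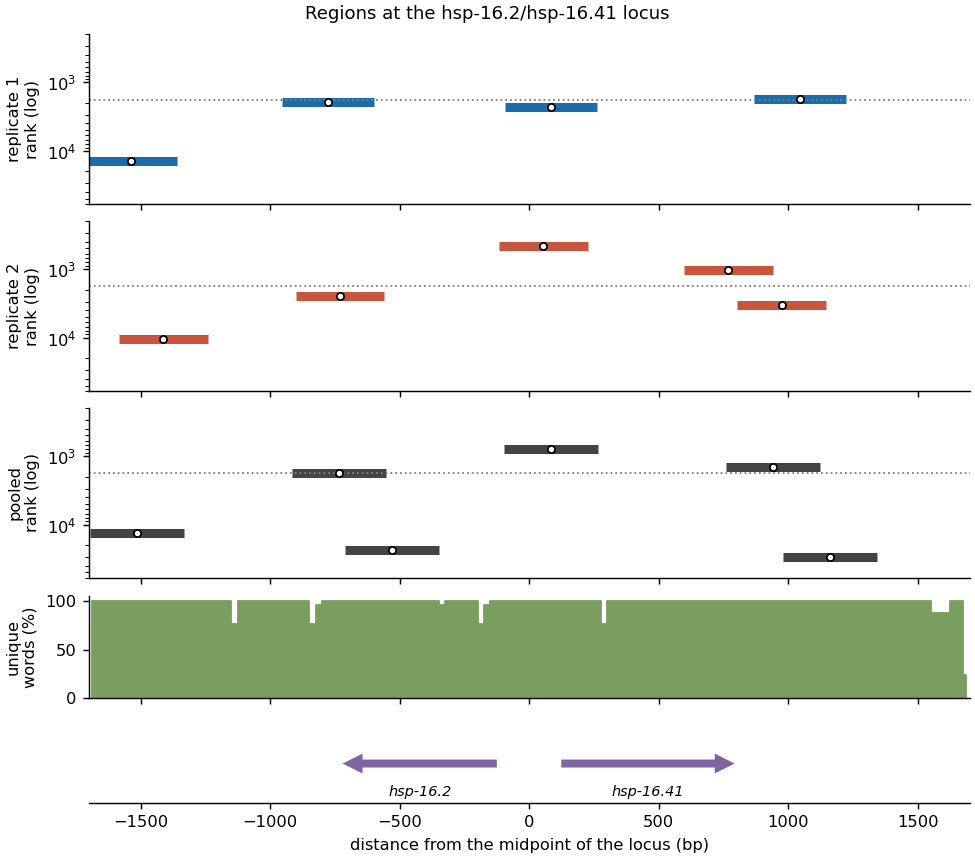
Regions at the hsp-16.2/hsp-16.41 locus. The horizontal axis is the distance in bp from the midpoint between both starts. In the upper 3 panels bars are regions and circles their summits, at their rank in that list (log axis, highest signal at the top), and the dotted line is rank 1794, the number of peaks. The fourth panel gives the share of 36-base words that occur once in the genome and the lowest the genes, pointing from start to end. In each list 3 regions stand highest, between the starts and at each far end, and the middle one is ranked 2298 in replicate 1 and 463 in replicate 2.

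No other protein-coding start lay close to the end peaks. The nearest were those of the chemosensory receptor genes srt-41, 1191 bp from the peak at hsp-16.2, and srt-42, 1449 bp from the peak at hsp-16.41. srt-41 had 1 low pooled region of its own (signal 23.8, rank 13295) and srt-42 had none. Genome-wide, 1.38% of protein-coding genes had a peak within 200 bp of a transcript end and over 500 bp from their own starts. Both hsp-16.2 and hsp-16.41 did, and of the 1034 genes with a peak near a start 83 (8.03%) also had such an end peak. Peaks with at least 2 others within 1000 bp were 24 of 1789 distinct ones (1.34%). End peaks were examined after the regions had been seen.

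Of the 1697 divergent pairs, 2 had a peak near a start and at both ends, hsp-16.2 with hsp-16.41 and hsp-110 with rpn-3. hsp-110 encodes a large relative of HSP70 and rpn-3 a subunit of the proteasome cap. With ends taken to within 500 bp there were 4 such pairs. The other two were F44E5.4 with F44E5.5, and Y22D7AL.10, annotated as the mitochondrial 10 kDa heat shock protein, with hsp-60, its partner chaperonin. With ends to within 100 bp hsp-110 and rpn-3 alone were left.

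At the pooled summits the end peaks were lower in G and C than the promoter peak. Within 50 bp of those summits G and C made up 47.5% of bases at the promoter, 30.7% at the end of hsp-16.2 and 32.7% at the end of hsp-16.41. The median over all peaks was 45.5%, and 8.75% and 11.7% of peaks were as low as the end peaks or lower. The order did not hold in replicate 1, whose own summit past hsp-16.41 had 49.5%, beside 47.5% at the promoter and 39.6% at the end of hsp-16.2. In replicate 2 the promoter had 42.6%, the end of hsp-16.2 29.7%, and the regions at the end of hsp-16.41 21.8% and 36.6%. Neither pooled end summit had GAGAGA within 50 bp, nor ACGCAG, nor CGTCTC, nor GACGCA, nor GAGCGC, which are words frequent in peaks of these data. The pooled promoter summit also lacked GAGAGA and GAGCGC, and the others overlap there within CTGCGTCTC. Each pooled end summit had 1 TTCNNGAA, here in the same form TTCAAGAA. The stretches next to both ends show this, with that word in capitals. The first is the 100 bases just past the end of hsp-16.2 (V:1804234-1804333) and the second runs from 50 bp before to 50 bp after the summit past hsp-16.41 (V:1805961-1806061), both on the plus strand.

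past hsp-16.2: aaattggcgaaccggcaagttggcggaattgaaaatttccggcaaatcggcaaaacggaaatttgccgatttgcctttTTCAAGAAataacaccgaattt
past hsp-16.41: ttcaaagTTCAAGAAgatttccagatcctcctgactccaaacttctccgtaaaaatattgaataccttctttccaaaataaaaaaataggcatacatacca

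TTCNNGAA lay within 50 bp of 4.79% of all peak summits and of 7.30% of the 15000 lowest summits of the pooled list, so the word was not more frequent in peaks.

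The promoter summits lay beside CTGCGTCTC. The word spans V:1805116-1805124, so the summit of replicate 2 falls inside it and that of replicate 1 and of the pooled list lies 32 bp from its middle. It holds CGTCTC and the reverse complements of ACGCAG and GACGCA, which overlap in it and were therefore counted together. All 6 genes have it within 500 bp upstream of their start, as do 4.30% of protein-coding genes, on either strand. It lay within 50 bp of 7.69% of peak summits and 0.553% of the 15000 lowest pooled summits. This 9-base word was put together after the shorter words had been read in these promoters, and those came from earlier results of the same peaks.

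The heat shock elements lay on either side of it. The left one, TTCNNGAA and GAANNTTC sharing their GAA, begins 58 bp from the start of hsp-16.2, and the middles of those words lie 134 and 128 bp from the pooled summit. On the same scale the middle of the right TTCNNGAA lies at -20 bp, on the other side of the pooled summit. That is nearer than the middle of CTGCGTCTC, at 32 bp. The right element begins 9 bp before the annotated start of hsp-16.41 and runs 3 bp past it. In the duplicated pairs the matching element lies 99 bp from the annotated start of hsp-16.48 and of hsp-16.49. Those annotations begin at the start codon, so the distances are not alike in kind. Within 500 bp upstream, 3 alternating units occurred at least once in 3.25% of protein-coding genes and at least 2 times in 0.416%. hsp-16.41 had 1, since the other crosses its start, and each of the other 5 genes had 2. Among peaks such elements were not frequent (0.780% of summits, against 0.833% of the lowest pooled summits). TATAAA was in each of the 6 upstream windows and in 54.0% of all.

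**Figure D2:**
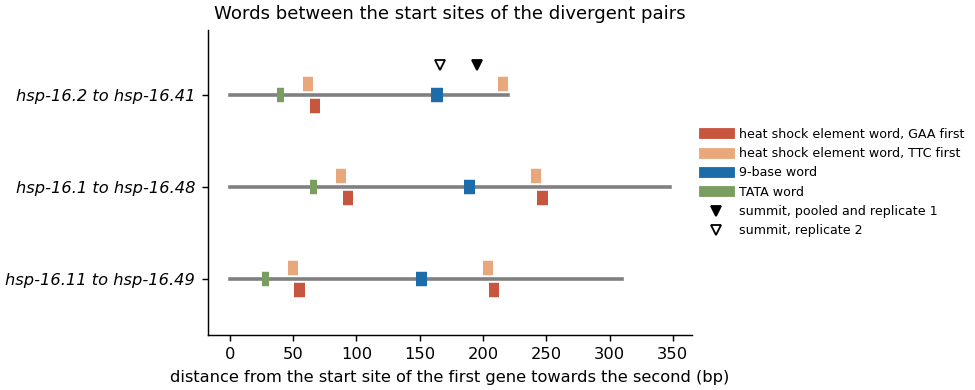
Words between the starts of the 3 divergent pairs. The horizontal axis is the distance in bp from the start of the first named gene towards the second, and the grey line ends at the second start. Coloured blocks are words found on either strand, and triangles are the summits in the first pair. The order of words is the same in all 3, the 9-base word between heat shock elements, and the summits at 166 and 195 bp lie at or past that word. The summit at 195 bp lies nearer the right heat shock element than the 9-base word.

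The 4 other genes had no region in any list. hsp-16.1 (T27E4.8, WBGene00002015, V:9087293-9087782, minus strand) and hsp-16.48 (T27E4.3, WBGene00002019, V:9088131-9088617, plus strand) start 349 bp apart. hsp-16.49 (T27E4.9, WBGene00002020, V:9089280-9089766, minus strand) and hsp-16.11 (T27E4.2, WBGene00002017, V:9090077-9090604, plus strand) start 311 bp apart. Ensembl gives both T27E4.8 and T27E4.2 the symbol hsp-16.1, and both T27E4.3 and T27E4.9 the symbol hsp-16.48, so the genes were told apart by sequence name, with the RefSeq symbols.

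The locus is an inverted repeat. Its arms, V:9086851-9088741 and V:9089156-9091046, are 1891 bp long and identical at 1890 bases, with 414 bp between them. Coding sequences of hsp-16.1 and hsp-16.11 were 100% identical, as were those of hsp-16.48 and hsp-16.49. Outside the repeat hsp-16.2 was 90.6% identical to hsp-16.1 over 145 codons, and hsp-16.41 92.1% identical to hsp-16.48 over 143 codons. Between the 2 types the match was lower, 65.2% for hsp-16.2 and hsp-16.41. Within 500 bp of the start of each of the 4 duplicated genes, 0 of 1001 words of 36 bases occurred at a single place in the genome, and this was also 0 for words of 50 and 100 bases. For hsp-16.2 and hsp-16.41, 987 of 1001 words of 36 bases were unique (98.6%), and all of those of 50 bases.

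No summit lay in the repeat in any list. The nearest region on the left had its summit at 9086801 in the pooled list, 50 bp outside the left arm and 981 bp from the start of hsp-16.1, and its last 132 bp lay inside the arm (113 bp in replicate 1 and 107 bp in replicate 2). Its signal was 21.1 in replicate 1 (rank 4598), 9.92 in replicate 2 (rank 23150) and 29.7 in the pooled list (rank 8118). The nearest on the right had its summit at 9092272 in the pooled list, 1226 bp outside the right arm, near the start of T27E4.1 (signal 25.2, rank 11834). There the nearest regions of the replicates did not overlap each other. That of replicate 1 was V:9091903-9092258, its summit 1035 bp outside the arm (signal 26.6, rank 2544). That of replicate 2 was V:9092304-9092647, its summit 1430 bp outside (signal 10.7, rank 20243). On the left the nearest protein-coding gene was T27E4.7, whose highest pooled region had a signal of 30.1 (rank 7856). None of these reached the optimal list, and the nearest peak to hsp-16.11 lay 4403 bp from its start. The empty stretch measured 4939 bp in replicate 1, 5346 bp in replicate 2 and 5107 bp in the pooled list. A stretch of this length without a region is common, since 14.3% of gaps between pooled regions were as long.

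Between the arms, 449 positions in a row (V:9088707-9089155) start unique words of 36 bases, and these lie past the ends of hsp-16.48 and hsp-16.49, which point towards each other. No list had a region there, while the related gene hsp-16.41 had a peak with its pooled summit 136 bp past its end. The replicates differed on that place. The summit lay 240 bp past the end in replicate 1, and that of the higher region in replicate 2 lay inside the gene. The ends of hsp-16.1 and hsp-16.11, the counterparts of hsp-16.2, lie inside the arms, where no word is unique. The lack of a region between the arms cannot be read as absence of ZTF-4, and its cause was not tested. The arms are 414 bp apart and the usual pooled region was 364 bp wide. A region centred midway would thus fit, and one centred near either arm would reach into it. The nearest region left of the repeat was listed although it reached 132 bp into its arm in the pooled list. How reads that match several places were treated is unknown. Genome-wide, an end peak was also rare, at 1.38% of protein-coding genes.

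**Figure D3:**
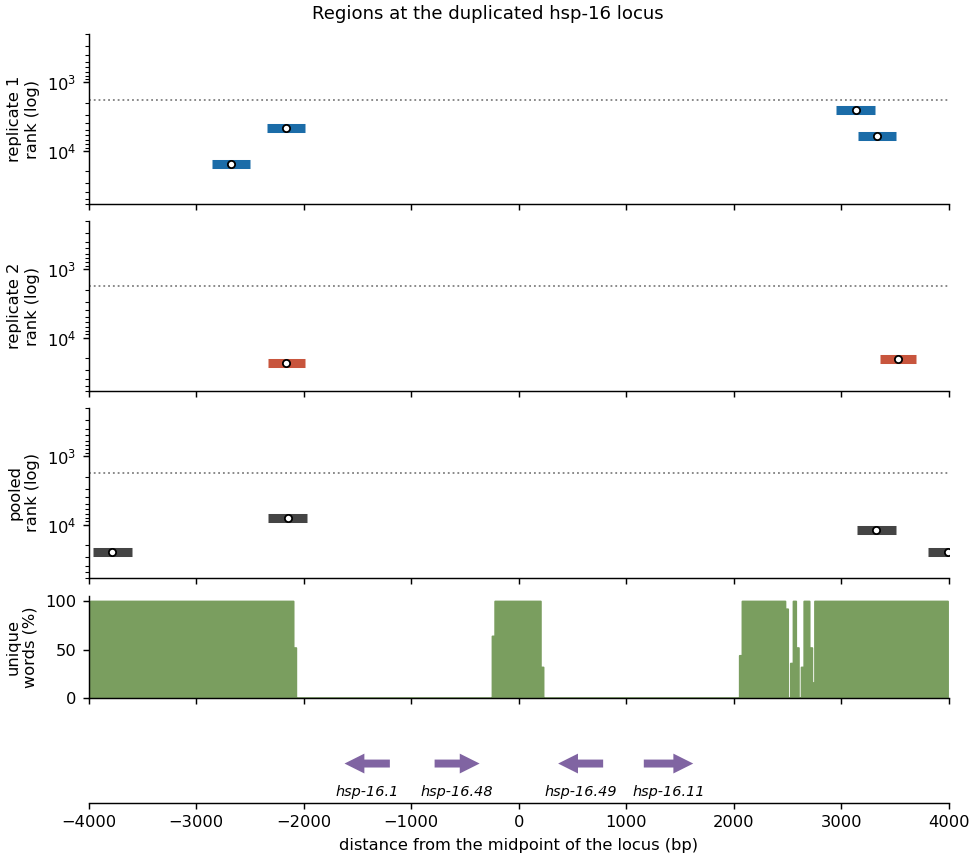
Regions at the duplicated hsp-16 locus, drawn as for the other locus, with the distance in bp from the midpoint of the 4 genes on the horizontal axis. Summits stand on both sides of the repeat and none within it, and the left region reaches 132 bp into the left arm in the pooled list. The share of unique words is 0 across all 4 genes and returns to 100% between hsp-16.48 and hsp-16.49.

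Across the genome, genes in repeated sequence seldom had a region. Of the 208 protein-coding genes with 0 unique words of 36 bases within 500 bp of their start, the 4 duplicated hsp-16 genes among them, 0 had a pooled region (Wilson 95% upper limit 1.81%). Of the 544 genes under 50%, 9 had one (1.65%, Wilson interval 0.873 to 3.11%), against 5632 of 14209 genes at 100% (39.6%, 38.8 to 40.4%). These intervals cover counting of genes and not of reads. The sources used here do not give how reads that match several places were treated, so an unoccupied promoter and one whose reads could not be placed cannot be told apart at these 4 genes.

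**Figure D4:**
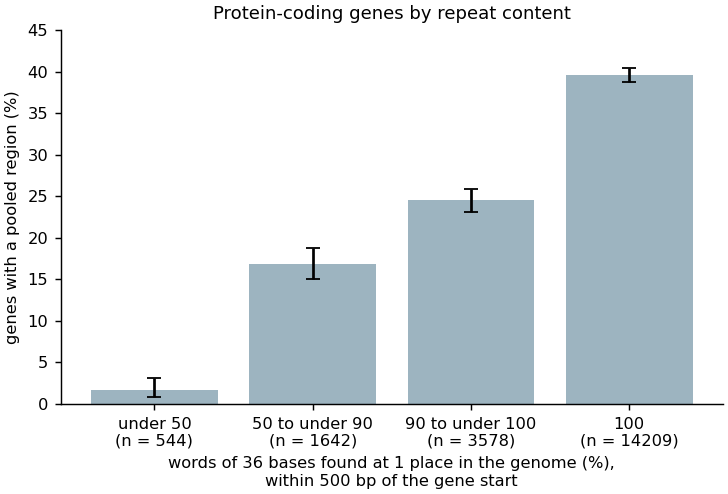
Share of protein-coding genes with a pooled region within 500 bp of a start site (vertical axis, percent), by the share of unique 36-base words within 500 bp of the gene start (horizontal axis). Bars start at 0 and error bars are Wilson 95% intervals. The share rises from 1.65% to 39.6% over the 4 classes, and the duplicated hsp-16 genes belong to the first.

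None of 10 other small heat shock genes had a peak, beside 5.18% of all protein-coding genes, and 5 had a pooled region, beside 34.0%. With 10 genes, a count of 0 peaks is near that share and is not a result about them. sip-1, which encodes a small heat shock protein of embryos and the germ line, had the highest, with signals of 23.1 in replicate 1 (rank 3604), 31.9 in replicate 2 (rank 2104) and 49.2 pooled (rank 2745). hsp-12.6 followed at 40.3 pooled (rank 4169), then hsp-25 at 30.6, hsp-43 at 24.3 and hsp-12.2 at 21.4. hsp-17 and hsp-12.1 had a region in replicate 2 alone, and hsp-12.3 in neither. F08H9.3 and F08H9.4, which RefSeq names hsp-16.20 and hsp-16.21, also had none.

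Of 16 genes of the heat shock factor pathway and chaperones, 14 had a pooled region and 8 a peak, beside the same 34.0% and 5.18% of all protein-coding genes. The list was chosen with earlier results of these data known, and no test was run on it. The peaks were those of hsp-110 (pooled signal 305), hsp-90 (279), hsp-1 (204), which encodes the constitutive cytosolic HSP70, and dnj-13 (155), a J-domain co-chaperone of HSP70. hsp-3 (145), an HSP70 of the endoplasmic reticulum, the inducible HSP70 genes F44E5.4 and F44E5.5 (124, shared) and hsp-6 (114), the mitochondrial HSP70, completed them. All 8 were above the hsp-16.2/hsp-16.41 promoter (88.1). hsf-1 itself had a low region (28.9, rank 8664), hsb-1 and ddl-1, whose products bind or restrain HSF-1, had none, ddl-2 of the same group had a low one (24.6, rank 12389), and the inducible hsp-70 had one of signal 22.9 (rank 14495).

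F44E5.4 and F44E5.5 also had a peak between their starts and at both ends, the ends taken to within 500 bp. They lie 351 bp apart on chromosome II (II:11757107-11759311 and II:11759662-11761861), diverge from 1 promoter and have identical coding sequences. Their promoter peak had signals of 32.3 in replicate 1 (rank 1551) and 92.7 in replicate 2 (rank 176), so its rank ratio was 8.81, beside 4.96 at hsp-16.2 and hsp-16.41. Both promoters therefore ranked higher in replicate 2. Their end peaks lay 90 bp past F44E5.4 (163, rank 18, in replicate 1 and 153, rank 42, in replicate 2) and, in the pooled list, 239 bp past F44E5.5 (84.8, rank 147, and 109, rank 118). Unlike at the hsp-16 pair the end peaks stood above the promoter in both replicates. Only 1.81% and 3.23% of the 36-base words of these genes are unique, and 27.3% of those within 500 bp of their starts.

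**Figure D5:**
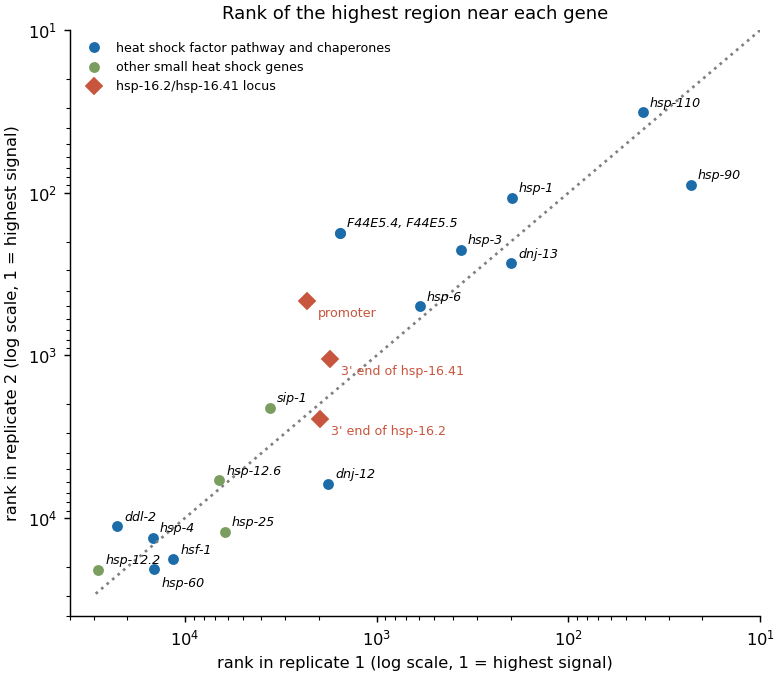
Rank of the highest region within 500 bp of each gene's start in replicate 1 (horizontal) and replicate 2 (vertical), on log axes with the highest signal at the upper right, for the related heat shock genes with a region in both. The dotted line is equal rank. Diamonds are the 3 sites of the hsp-16.2/hsp-16.41 locus. Its promoter (2298 and 463) and that of F44E5.4 and F44E5.5 (1551 and 176) lie farthest above the line among those plotted, and hsp-90 (23 and 89) and dnj-12 (1788 and 6150) lie below it.

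Among all protein-coding genes, the 5 whose highest region was closest to that of hsp-16.2 and hsp-16.41 in log10 rank over the 2 replicates were hpo-11, pcaf-1, met-1, gst-9 and tomm-20. Their ranks in replicate 1 ran from 1934 to 2431 and in replicate 2 from 391 to 516. The closest, hpo-11, ranked 2431 and 453.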

How the data were processed

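ChIP-seq regions of tagged ZTF-4 from 2 biological replicates were used as deposited lists on ce11, which is the assembly of the reference used (WBcel235). Per the README files deposited with them, the replicate and pooled lists came from alignments and a control, and the optimal list from those lists. For the aligner, caller, read length, IDR threshold and treatment of multiply matching reads, no entry was found: not given in the sources used here. Each region carries a signal deposited by the authors, whose scaling is unstated, so signals rank regions inside 1 list only. By the format's column order, −log10 q-values stand in the deposited lists too. Read depth is unknown. The control and the ce10 lists were not used here.

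Genes came from Ensembl release 115, and summits were column 2 plus column 10, written 1-based. Unique words were counted over the genome on both strands, words were searched on both strands, and the arms were aligned with BLAST+ 2.17.0 and intervals with Biopython 1.88 under Python 3.11.15. Counting was tested on simulated data with known answers. By rule, genes named are the 6 hsp-16 genes, their neighbours, related genes with a peak, and the 5 closest in rank. The end peaks, the 9-base word and all other genes named, among them related genes without a peak, were chosen after their values were seen. The members and lists were chosen with earlier results of these data known. Alternatives were other windows, overlap in place of summits, other start sites, single replicates and fewer regions.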

Additional observations from a re-analysis of the deposited data

How the results depend on the processing

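The hsp-16 genes with a region numbered 2 under every alternative except the window of 1000 bp, where hsp-16.1 gave 3, with 2 of the 3 pairs in place of 1. The count with a peak was 2 throughout, except that it ran from 0 to 2 when each replicate was left out, and was 0 without replicate 2. Over all protein-coding genes the pooled count of 6795 became 4410 at 250 bp, 9000 at 1000 bp and 7752 with overlap in place of summits. It was 1034 with as many regions as peaks and 4460 with the 15000 highest. Each of these changes is by construction. With single replicates the count ran from 6882 to 7083. Words of 36, 50 and 100 bases gave 0 unique words at the 4 duplicated genes. hsp-16 genes with an end peak, 2 within 200 bp, were 1 within 100 bp, 2 within 500 bp, 1 without replicate 1 and 0 without replicate 2, settings added after seeing the data. RefSeq starts were found for 19954 of 19973 genes. No paired analysis was possible because there is 1 group. The lists hold no read counts, so a low region cannot be given an error.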

Other observations

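The 9-base word GAGACGCAG and 3 alternating heat shock units occurred together within 500 bp upstream of 33 of 19973 protein-coding genes (0.165%), a count made after both had been seen in the hsp-16 promoters. All 6 hsp-16 genes are among the 33. Others are F44E5.4 and F44E5.5, the inducible HSP70 pair, sti-1, which encodes a co-chaperone that links HSP70 and HSP90, and idh-1, an isocitrate dehydrogenase gene. The rest include col-48, cpn-4, pig-1 and nhr-183, which are on neither list of related heat shock genes. Of the 33 genes, 18 had a pooled region and 10 a peak, beside 34.0% and 5.18% of all protein-coding genes. The 10 were hsp-16.2, hsp-16.41, F44E5.4, F44E5.5, sti-1, idh-1, F23C8.5, ZK1290.5, R107.5 and mak-2. The 4 duplicated hsp-16 genes, with 0 unique words of 36 bases near their starts, are counted in the 33. Of the 858 genes with the 9-base word upstream, 131 had a peak (15.3%), beside 5.18% of all protein-coding genes. The shorter words that make up the 9-base word came from earlier results of the same peaks. These counts of genes with a peak are therefore no separate support for the word. Each pair of divergent genes shares its words and its peak, so these genes are not independent.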
